A study of Homo sapiens with 40 samples.

Results

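STAT3 siRNA in OCI-Ly10 was followed on 5 arrays of the 40 in the series. The other arrays, which also enter the tests, hold IL-6 or JAK inhibitor I in OCI-Ly10 and IL-10 in OCI-Ly3. They also hold an inducible IkB super-repressor in both lines. OCI-Ly10 is an established human lymphoma line of the activated B cell-like class of diffuse large B cell lymphoma. The members are all arrays whose title names a SMARTpool of STAT3 siRNA against no siRNA: 1 array 8 h after treatment, 2 arrays after 24 h and 2 after 48 h. In 1 arm the cells were electroporated with a pool of siRNAs to STAT3 at 4 uM in Solution T (program A-23 of an Amaxa device); in the other arm they went through the same electroporation without siRNA. Both arms come from 1 line with no selection step named, so a ratio averages transfected and untransfected cells. No arm with a non-targeting siRNA is among these samples, so what any siRNA does cannot be told apart from what the loss of STAT3 does.

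Each array set RNA of siRNA-treated cells, labelled with Cy5, against RNA of cells without siRNA, labelled with Cy3. The values are log ratios of siRNA over no siRNA. Their base is not stated and they are read here as log2, so 0 means equal RNA in both arms and each step of 1 a doubling. The dyes were never swapped, so a gene's own dye bias remains in its ratio. The labels do not say whether replicates were separate cultures. Unless stated, p-values and SEs use the spread between replicate arrays over the whole series, not over the siRNA arrays alone. That spread may be technical.

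STAT3 is a transcription factor that rests in the cytoplasm until Janus kinases, bound to receptors for cytokines such as IL-6 and IL-10, phosphorylate it. It then pairs up, enters the nucleus and binds short palindromic DNA sites near its target genes, some of which encode inhibitors of the same pathway. In activated B cell-like lymphoma STAT3 is often active because the cells secrete IL-6 and IL-10 themselves. An siRNA lowers the messenger RNA it pairs with, so the protein falls only as existing molecules decay.

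The arrays did not all behave alike. A value was present for 11883 to 14179 of 15246 probes, and gene means were available for 4604 genes. Across genes, the 8 h array correlated at 0.74 with replicate 1 at 24 h and at 0.55 with replicate 1 at 48 h, but at 0.20 with replicate 2 at 24 h and -0.14 with replicate 2 at 48 h. The replicates of 24 h correlated at 0.30 and those of 48 h at 0.20, as a description of arrays that share probes and platform. The 8 h array and replicate 2 of 48 h were the broadest: 445 probes lay below -1 at 8 h and 19 above 1, against 214 below -1 and 323 above 1 on replicate 2 of 48 h. Array identifiers place the 8 h array with replicate 1 of 24 and 48 h in 1 consecutive run and both replicate 2 arrays in another. Another fit took the replicate number of each experiment as a random block, and "under the block" refers to it. On the siRNA arrays the replicate number and the run form the same groups. With the run as the block, 47 genes passed over 24 and 48 h and 161 at 8 h, the same counts as with the replicate number. Every value is a ratio within 1 line, so the labelled cell type could not be checked against the level of its markers.

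STAT3 RNA, the target of the siRNA, was lower on every array. Its log2 ratio was -1.99 at 8 h, -1.46 and -2.26 on replicates 1 and 2 of 24 h, and -1.74 and -0.89 on replicates 1 and 2 of 48 h. Read in base 2, 25.2% of the control level was left at 8 h, 20.9% on the lowest 24 h array and 53.9% on the highest 48 h array. The mean of 4 arrays over 24 and 48 h fell by 1.59 ± 0.17 (SE), which leaves 33.3%, with an adjusted p of 6.4e-05. The SE comes from the fit to all arrays of the series. With the spread taken from the siRNA arrays alone, STAT3 did not pass the test. Both probes of STAT3 were lowered, to -1.66 and -1.52. In a ratio of bulk RNA, fewer cells that hold STAT3 RNA and less of it per cell cannot be told apart. The levels at 24 h (-1.86 ± 0.56, SD, n = 2) and at 48 h (-1.31 ± 0.60, SD, n = 2) overlapped. Leaving out 1 of the 4 arrays kept the call, with adjusted p between 9.82e-05 and 0.00188.

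Of the other STAT genes measured, none passed the test at 24 and 48 h or at 8 h. STAT6, which carries IL-4 signals, was at 0.26 ± 0.09 (adjusted p = 0.107), STAT5A at -0.18 ± 0.10, STAT5B at -0.07 ± 0.10 and STAT4 at -0.02 ± 0.11 over 24 and 48 h. All 4 lay within 0.26 of 0, and the probes of STAT5B and STAT4 differed in sign.

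At 24 and 48 h, 144 of 4346 tested genes passed (3.31%): 89 fell (2.05%) and 55 rose (1.27%). Besides STAT3, genes that fell encode granzymes (GZMB, GZMH), a migration receptor (GPR183), a retinol dehydrogenase (DHRS9) and a feedback inhibitor of cytokine signals (SOCS2). Genes that rose encode chemokines (CCL3, CCL4) and a lymphocyte surface antigen (CD52). With the run of array identifiers as a random block, 47 genes passed (1.08%), 35 lower (0.805%) and 12 higher (0.276%), and all 47 were among the 144. Leaving out replicate 1 of 24 h gave 21 genes, and leaving out replicate 2 of 48 h gave 53. With the spread taken from the 5 siRNA arrays alone, limma called 0 genes, while 619 had an unadjusted p under 0.05. Of 31 named genes that passed and could be fitted without each of the 4 arrays, 9 passed in all 4 such fits: STAT3, GZMB, GZMH, DHRS9, GPR183, CCL4, CD52, H2BC12 and NR4A3. Of these 9, on the replicate 1 arrays alone GPR183 and NR4A3 missed the threshold, and on the replicate 2 arrays alone GPR183, GZMB and GZMH did; GPR183 also missed it with arrays scaled to equal spread.

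GZMB encodes granzyme B, a serine protease of cytotoxic granules that activated B cells can also make. Its log2 ratio was 0.02 at 8 h, -1.11 and -0.97 at 24 h, and -1.26 and -1.0 at 48 h (replicates 1 and 2 in that order, as throughout). The 8 h array lay near 0 and all 4 later arrays lay far below it. GZMB fell by 1.09 ± 0.16 over 24 and 48 h (adjusted p = 0.00165, and 0.000693 under the block). The difference between the later arrays and 8 h did not pass (-1.11 ± 0.35, adjusted p = 0.232; 8 h has 1 array). GZMH encodes a sister protease, with -0.09 at 8 h, -0.88 and -0.80 at 24 h and -0.75 and -0.87 at 48 h. GZMH fell by 0.82 ± 0.13 (adjusted p = 0.00467). The genes are close relatives with 1 probe each, so cross-hybridization between them was not tested.

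DHRS9 encodes a short-chain dehydrogenase that acts on retinol and steroids. It lay at -0.38 at 8 h, -0.86 and -0.66 at 24 h, and -0.81 and -0.97 at 48 h. All 5 arrays were below 0, and 8 h was the nearest to it. DHRS9 fell by 0.82 ± 0.09 (adjusted p = 8.77e-05), and with STAT3 it was 1 of 2 genes that passed at 24 h alone (0.0494% of 4048 tested). GPR183, or EBI2, is the oxysterol receptor that guides B cells to the outer follicle. It lay at -0.13 at 8 h, -0.44 and -0.56 at 24 h, and -1.02 and -0.91 at 48 h. Both 48 h arrays were below both 24 h arrays and those below 8 h, but 48 h minus 24 h did not pass for any gene. GPR183 fell by 0.73 ± 0.13 over 24 and 48 h (adjusted p = 0.00562), with its 4 probes between -0.89 and -0.48.

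SOCS2 belongs to the suppressors of cytokine signalling, which STAT proteins induce and which dampen receptor signals. It lay at -0.49 at 8 h, -0.60 and -0.59 at 24 h, and -0.58 and -0.81 at 48 h. The 5 arrays were close to each other from 8 h on. SOCS2 fell by 0.65 ± 0.13 (adjusted p = 0.00854; 0.0531 under the block). Without replicate 1 of 24 h or replicate 2 of 48 h it missed the threshold, with adjusted p up to 0.0695. LST1, a small leukocyte membrane protein, was at -0.46 and -1.16 at 24 h and -0.49 and -0.84 at 48 h. LST1 fell by 0.74 ± 0.13 (adjusted p = 0.00562), and without replicate 2 of 24 h or of 48 h the adjusted p was at most 0.0542. Replicate 2 was the lower array at both times.

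**Figure D1:**
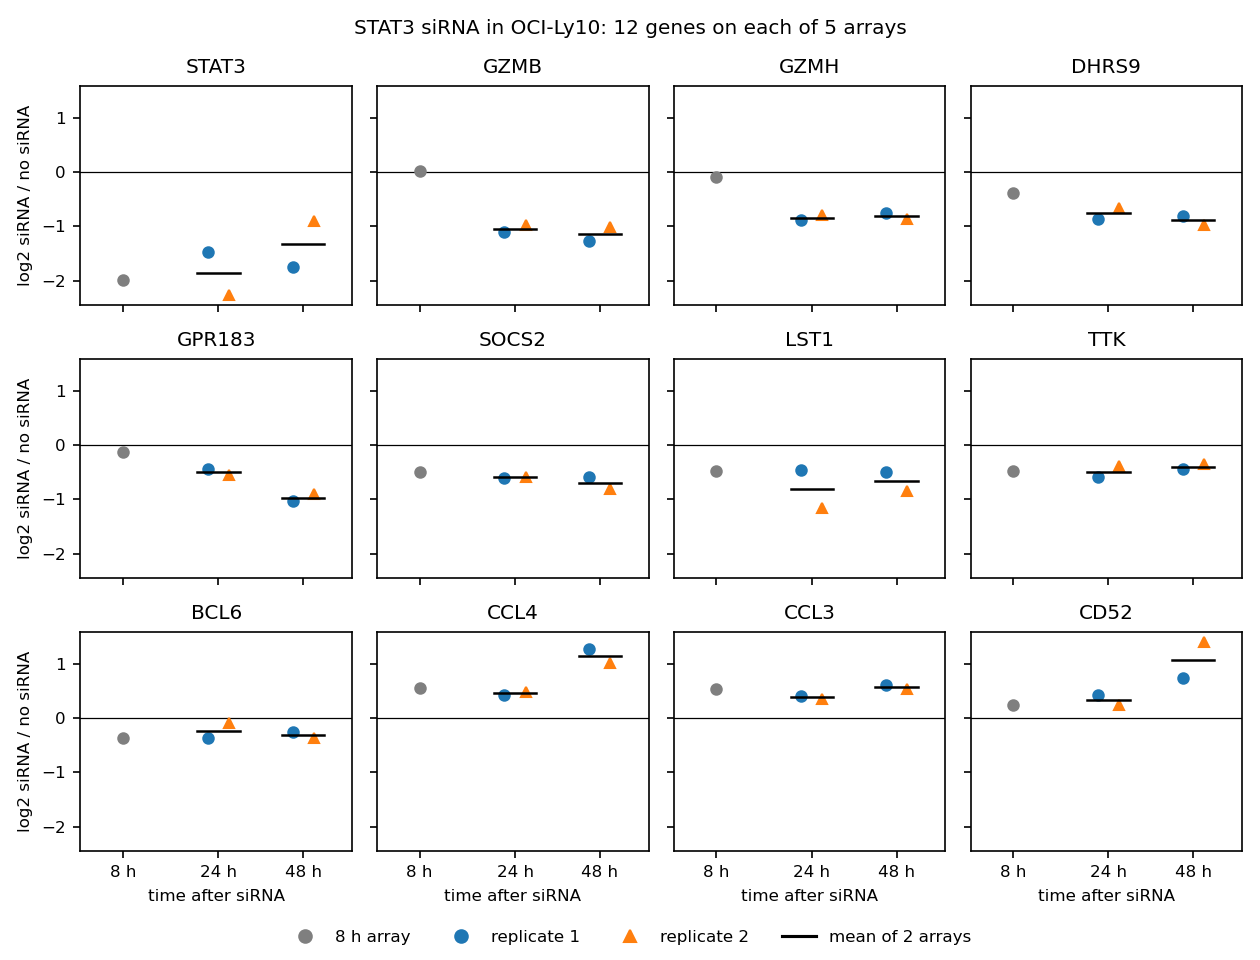
Log2 ratio of siRNA over no siRNA (vertical axis) against time (horizontal axis) for 12 genes on the 8 h array (grey), replicate 1 (blue circles) and replicate 2 (orange triangles), with bars for the mean of the 2 arrays of a time. STAT3 lies between -2.26 and -0.89 on all 5 arrays, GZMB and GZMH are near 0 at 8 h and low at 24 and 48 h, and CCL4 is above 0 throughout.

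The proliferation kinase TTK, a spindle checkpoint enzyme also called MPS1, was below 0 on every array, from -0.59 to -0.36 at 24 and 48 h. It fell by 0.44 ± 0.07 (adjusted p = 0.00373), while without replicate 1 of 24 h the adjusted p was 0.0515. TTK was the 1 member of 51 cell cycle genes that passed. The list as a whole had a median of 0.04, against -0.01 over all tested genes. CDC20, CDK4 and MCM7, genes of mitosis, G1 and replication, were at 0.25 ± 0.09, 0.37 ± 0.11 and 0.36 ± 0.14 and did not pass over both times; CDK4 passed at 48 h.

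GLO1, SNX18 and PLSCR1 were low from 8 h on. GLO1 encodes glyoxalase, which detoxifies methylglyoxal; it lay at -1.35 at 8 h, -0.97 and -0.51 at 24 h, and -0.73 and -0.35 at 48 h. For all 3 genes replicate 1 lay below replicate 2 at both times. GLO1 fell by 0.64 ± 0.11 (adjusted p = 0.00521; 0.0695 without replicate 1 of 24 h). SNX18, a sorting nexin of membrane traffic, fell by 0.69 ± 0.13 (adjusted p = 0.00737), with an adjusted p of up to 0.104 without replicate 1 of 24 h or of 48 h. PLSCR1, an interferon-induced scramblase, fell by 0.49 ± 0.10 (adjusted p = 0.017), with an adjusted p of up to 0.108 without replicate 1 of 24 h, replicate 2 of 24 h or replicate 1 of 48 h. Beside them, the 8 h array and both replicate 1 arrays share 1 run of identifiers, and its part in these values was not tested.

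CCL4 encodes the chemokine MIP-1 beta, which B cells secrete on antigen receptor and NF-kB signals. Its log2 ratio was 0.55 at 8 h, 0.43 and 0.47 at 24 h, and 1.28 and 1.02 at 48 h. All 5 arrays were above 0, and both 48 h arrays were above the other 3. CCL4 rose by 0.80 ± 0.10 over 24 and 48 h (adjusted p = 0.000487, and 0.000545 under the block), with its 8 probes between 0.53 and 0.93. CCL3, or MIP-1 alpha, its neighbour in function, lay at 0.54 at 8 h, 0.40 and 0.36 at 24 h, and 0.61 and 0.54 at 48 h. CCL3 rose by 0.48 ± 0.11 (adjusted p = 0.0207), but missed the threshold without any 1 of the 4 arrays (adjusted p 0.0674 to 0.133) and under the block (adjusted p = 0.0629).

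CD52, a small glycoprotein on the surface of lymphocytes, lay at 0.24 at 8 h, 0.42 and 0.23 at 24 h, and 0.74 and 1.40 at 48 h. It rose by 0.70 ± 0.11 (adjusted p = 0.00373). H2BC12, a replication-dependent histone H2B gene, rose by 0.57 ± 0.08 (adjusted p = 0.000487) and was between 0.46 and 0.66 on the 4 later arrays. The nuclear receptor gene NR4A3, an early-response gene, rose by 0.44 ± 0.07 (adjusted p = 0.00467) and was between 0.30 and 0.68 on those arrays. For these 3 genes and CCL4, no later array was at or below 0, which the naming rule required of CCL4, CD52 and H2BC12. LY86, the partner of the toll-like receptor relative RP105 on B cells, rose by 0.56 ± 0.12 (adjusted p = 0.0177; up to 0.1 without replicate 1 or replicate 2 of 24 h or replicate 1 of 48 h). EGR1, a transcription factor of the immediate-early response, rose by 0.40 ± 0.09 (adjusted p = 0.0203; up to 0.209 without replicate 1 of 24 h or of 48 h).

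The other genes named by size changed with less support. CCDC191 was at -0.18, -1.05, -0.29 and -2.95 on the 4 later arrays and fell by 1.12 ± 0.26 (adjusted p = 0.0256), but by 0.45 without replicate 2 of 48 h. ARHGAP31, a GTPase-activating protein, fell by 0.69 ± 0.14 and ELP4, an Elongator subunit, fell by 0.73 ± 0.14; each kept its call in 1 of 4 fits that left out an array. Among genes that rose, NVL (0.57 ± 0.15) and CYB561A3 (0.50 ± 0.10) lost their calls without replicate 1 of 24 h or replicate 2 of 48 h, and NVL also without replicate 2 of 24 h. AUP1 (0.49 ± 0.13) lost it without any 1 array. TLX1, SLC38A9 and TRAM2 had no value on replicate 2 of 24 h and CYBA none on replicate 2 of 48 h; they rose by 0.54 to 0.68 on the other 3 arrays. Under the block, LY86, EGR1, CCDC191, ARHGAP31, NVL, AUP1, TLX1, SLC38A9, TRAM2 and CYBA all missed the threshold.

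Known STAT3 targets and JAK-STAT feedback genes were a list of 44, of which 42 were tested: 4 fell (SOCS2, BCL6, GZMB and GPR183), 0 rose and 38 did not pass, against 2.05% of all tested genes that fell and 1.27% that rose. Under the block, 2 fell (GZMB and GPR183), against 0.805% of all tested genes. The list's median was -0.04, against -0.01 over all tested genes. The list was chosen with earlier results of these data known, so its counts describe it and are no independent support. SOCS3, an inhibitor that STAT3 induces and a common readout of its activity, lay at 0.14 at 8 h, 0.07 and 0.19 at 24 h, and 0.14 and 0.34 at 48 h (0.19 ± 0.13, adjusted p = 0.438). CISH was at -0.19 ± 0.13, SOCS1 at 0.01 ± 0.07, BCL3 at -0.15 ± 0.09, JUNB at 0.19 ± 0.06 and PIM1 at 0.07 ± 0.15, and none of them passed. The probes of SOCS3, SOCS1, CISH and PIM1 differed in sign from each other. The survival genes MCL1 (-0.08 ± 0.07) and BCL2L1 (0.01 ± 0.08) and the growth gene MYC (-0.18 ± 0.16) did not pass over 24 and 48 h.

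BCL6, the repressor that maintains germinal centre B cells, lay at -0.37 at 8 h, -0.37 and -0.10 at 24 h, and -0.26 and -0.36 at 48 h. BCL6 fell by 0.27 ± 0.07 (adjusted p = 0.0487), lost the call without any 1 array (adjusted p up to 0.398), and had an adjusted p of 0.139 under the block. Its 5 probes ran from -0.44 to 0.38. PRDM1, the plasma cell regulator that represses BCL6, was at -0.35 ± 0.13 (adjusted p = 0.139), and IRF4, which defines activated B cell-like lymphoma, was at -0.16 ± 0.13.

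Promoters were searched for the palindrome TTCNNNGAA, the core of a STAT dimer site, which reads the same on both strands. Sequences were RefSeq's (GRCh38.p14), taken from 250 bases before each gene's start, and the match is a description of letters only. Of 27305 promoters 6.78% held it, as did 5.77% of the 3551 promoters of tested genes. It was in 2 of the 72 promoters found for genes that fell (BCL6 and RASGRP1) and in 4 of the 50 found for genes that rose. The promoters of the first pair are shown because they are the only genes of those that fell with a match; capitals mark it. BCL6 lies on the minus strand of chromosome 3, with this stretch at chr3:187745469-187745718 and the match beginning 28 bases before the start. RASGRP1 encodes an activator of Ras downstream of antigen receptors, was chosen after its values were seen, and fell by 0.37 ± 0.08 (adjusted p = 0.0211). Its stretch lies at chr15:38564815-38565064 on the minus strand, and its match begins 105 bases before the start.
BCL6: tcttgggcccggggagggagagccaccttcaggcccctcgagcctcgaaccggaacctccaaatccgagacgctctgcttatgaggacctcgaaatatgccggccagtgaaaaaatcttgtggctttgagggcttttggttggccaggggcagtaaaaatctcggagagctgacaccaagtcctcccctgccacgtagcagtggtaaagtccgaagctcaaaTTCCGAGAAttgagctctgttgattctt
RASGRP1: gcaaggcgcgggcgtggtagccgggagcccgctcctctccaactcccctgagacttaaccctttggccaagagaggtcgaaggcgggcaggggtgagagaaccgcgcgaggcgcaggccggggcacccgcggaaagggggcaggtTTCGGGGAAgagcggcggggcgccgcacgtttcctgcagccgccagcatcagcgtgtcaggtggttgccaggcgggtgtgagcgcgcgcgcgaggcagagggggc

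Double-stranded RNA can set off an interferon response, so genes of that response were followed as a list. Of 43 interferon-stimulated genes tested at 24 and 48 h, 1 rose (IFI44L), 1 fell (PLSCR1) and 41 did not pass, with a median of 0.04; of all tested genes 1.27% rose and 2.05% fell. IFI44L missed the threshold under the block (adjusted p = 0.0629), which leaves 0 that rose. IFI44L lay at 0.94 at 8 h, 0.60 and 0.09 at 24 h, and 0.87 and 0.53 at 48 h, and rose by 0.52 ± 0.12 (adjusted p = 0.0256; up to 0.292 without replicate 1 of 24 h or either replicate of 48 h). MX1, which encodes an antiviral GTPase, was at 0.21 ± 0.08 (adjusted p = 0.172). At 8 h, IFI44L, IFI6 (0.88) and IFIT1 (1.05) rose and PLSCR1 (-1.24) and SAMD9L (-0.72) fell, each on 1 array. Of all tested genes 1.3% rose and 3.99% fell at 8 h. Under the block 2 rose and 1 fell, against 0.807% and 2.8% of all tested genes, and IFIT1 missed the threshold (adjusted p = 0.0515). With arrays scaled to equal spread, only 1 of all tested genes rose at 8 h and 7 fell. SAMD9L, an antiviral restriction factor, was named for its call at 8 h. Of 12 sensors of double-stranded RNA and their adaptors, none passed over 24 and 48 h, with a median of 0.09; EIF2AK2, the kinase PKR, was at 0.16 ± 0.09. Of 4 measured genes of the RNA interference machinery none passed, DICER1 at -0.13 ± 0.07 and AGO2 at -0.09 ± 0.08 among them.

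Of 43 NF-kB targets tested, 2 rose (CCL3 and CCL4; CCL4 alone under the block) and 0 fell, against 1.27% and 2.05% of all tested genes, with a median of 0.06. Under the block 0.276% of all tested genes rose. CCL3 and CCL4 were also the only ones of 42 chemokines and cytokines to pass. NFKBIA, the inhibitor that NF-kB itself induces, was at -0.07 and -0.08 at 24 h and at 0.30 and 0.79 at 48 h (0.23 ± 0.13 in all, adjusted p = 0.308). Both 48 h arrays lay above both 24 h arrays, yet the difference between the times did not pass. IL6 was at -0.02 ± 0.15. IL10 ran from -0.95 at 8 h through -0.50 and -0.25 at 24 h to 0.02 and 1.02 at 48 h, with a mean of 0.07 ± 0.15 over 24 and 48 h.

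The remaining lists are given as counts, beside 3.31% of all tested genes that passed. Of 37 B cell and germinal centre genes, 1 fell (BCL6) and 0 rose. Of 26 immediate-early genes, NR4A3 and EGR1 rose and IER2 fell (-0.62 ± 0.14 on 3 arrays, adjusted p = 0.0289). Of 9 MHC class II genes HLA-DMB rose (0.28 ± 0.07), of 31 survival genes PDCD4, an inhibitor of translation, rose (0.30 ± 0.07), and of 29 genes of glycolysis and hypoxia PFKP, a phosphofructokinase, rose (0.36 ± 0.08). HLA-DMB and PDCD4 lost their calls without any 1 array and PFKP without replicate 1 of 24 h or replicate 2 of 48 h, and none of these 3, BCL6, EGR1 or IER2 passed under the block. None passed among plasma cell genes (15 tested), MHC class I presentation (13), MYC-linked growth (17), p53 targets (17), heat shock and unfolded protein genes (15), the integrated stress response (16), sterol synthesis (12), cytokine receptors and Janus kinases (22) or ribosomal proteins (26). Ribosomal protein genes had the highest list median, 0.13; by array it was 0.15 at 8 h, 0.16 and 0.18 at 24 h and 0.10 and -0.10 at 48 h.

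Markers of other cell types were also followed. Of 20 T and NK cell markers none passed (median -0.05), of 9 erythroid and stromal markers none (median -0.08) and of 9 myeloid markers 1 fell, MNDA. The T and NK list held GZMA but left out the granzyme genes GZMB and GZMH, which fell here (-1.09 and -0.82). MNDA, an interferon-inducible nuclear protein found in some B cells too, fell by 0.48 ± 0.12 (adjusted p = 0.0323), a call lost without any 1 array and under the block (adjusted p = 0.068). On replicate 2 of 48 h the medians of these lists were -0.15, -0.25 and -0.27, and that of the B cell markers was 0.23, all further from 0 than the same lists at 24 h. Replicate 1 of 48 h had a like median for the B cell markers (0.21), but 0.00, 0.00 and -0.03 for the other 3 lists in that order. Their part in the other values of that array was not tested.

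**Figure D2:**
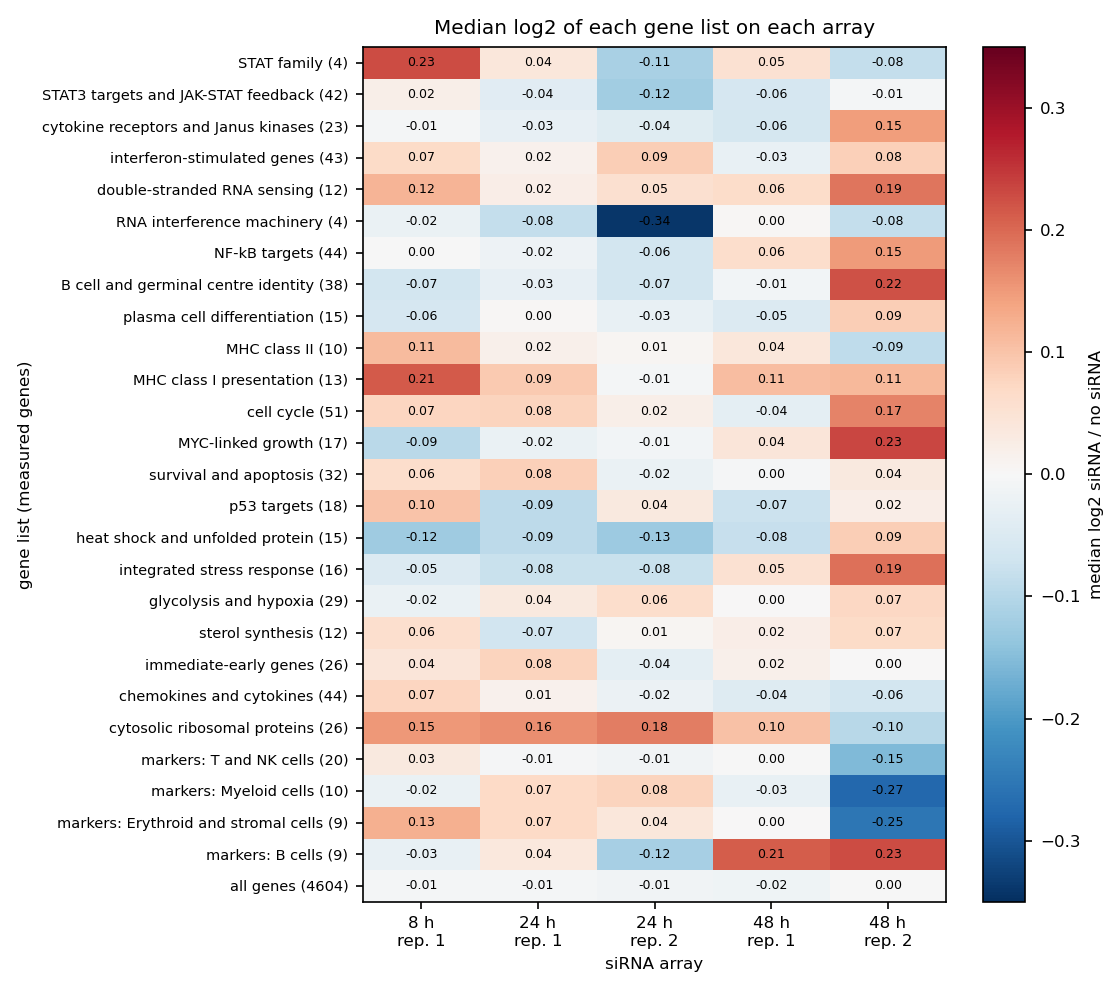
Median log2 ratio of each gene list (rows, with the number of measured genes) on each siRNA array (columns), coloured from blue (below 0) to red (above 0). Most medians lie near the all-gene medians in the bottom row; replicate 2 of 48 h is above 0 for B cell genes and below 0 for myeloid, stromal and T cell markers.

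At 8 h, 236 of 4461 tested genes passed (5.29%), 178 lower (3.99%) and 58 higher (1.3%); under the block 161 passed (3.61%), 125 lower (2.8%) and 36 higher (0.807%). This rests on 1 array whose spread the test borrows from other arrays, and that array was among the broadest of the 5. When arrays were scaled to equal spread, 8 genes passed, 7 lower and 1 higher. DHX15, an RNA helicase (-2.83), HSP90B1, a chaperone of the endoplasmic reticulum (-2.83), PPHLN1 (-2.39), SMC6, which acts in DNA repair (-2.32), and NMD3, an export factor of ribosomes (-2.26), were the lowest besides TBRG1. Replicate 2 of 48 h had DHX15 at 1.90, HSP90B1 at 2.08 and NMD3 at 1.30, so these genes lay at opposite ends of the 2 broad arrays. Under the block DHX15 (adjusted p = 0.0512), HSP90B1 (adjusted p = 0.0503) and NMD3 (adjusted p = 0.081) missed the threshold at 8 h. MYC lay at -1.16 at 8 h (adjusted p = 0.0459), -0.76 and 0.12 at 24 h and -0.37 and 0.29 at 48 h: replicate 1 was below 0 and replicate 2 above it. ID2, an inhibitor of helix-loop-helix factors, fell at 8 h (-1.28) and JAK2, a Janus kinase, fell too (-1.19); at 24 h JAK2 was at -0.06 and 0.42. MYC (adjusted p = 0.0621) and ID2 (adjusted p = 0.0503) missed the threshold under the block.

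Of the 89 genes that fell over 24 and 48 h, 18 also fell at 8 h, against 3.99% of all genes tested at 8 h. Of the 55 that rose, 54 were tested at 8 h and 11 rose there, against 1.3% of all. Both calls use the same estimate of the spread, and the 8 h array shares its run with replicate 1 of 24 and 48 h. Of the 89, 84 were below 0 on every measured array of 24 and 48 h, and 70 on all measured arrays of the 5. Of the 55, all were above 0 on every measured array of 24 and 48 h, and 54 on all measured arrays of the 5. Over all genes with 4 values, 13.8% were below 0 on all 4 arrays and 12.7% above 0. The calls were made from these same 4 arrays, so a shared sign on them largely follows from the selection and is no support.

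Between the later times and 8 h, 5 of 4295 genes differed (0.116%), 4 higher later (0.0931%) and 1 lower (0.0233%). With arrays scaled to equal spread 0 differed (201 at an unadjusted p under 0.05). TBRG1, a growth regulator linked to p53, lay at -2.33 at 8 h, -0.99 and 0.25 at 24 h, and -0.17 and 0.15 at 48 h, a difference of 2.14 ± 0.29 (adjusted p = 0.00397). CBLL1, an E3 ligase of the RNA methylation complex, lay at -1.84 at 8 h and between -0.55 and 0.28 later (difference 1.82 ± 0.27, adjusted p = 0.00782). RFXAP, a subunit of the factor that drives MHC class II genes, lay at -1.86 at 8 h and between -0.55 and -0.02 later (1.60 ± 0.24, adjusted p = 0.00501). HNRNPA1L2 lay at -1.22 at 8 h and between -0.42 and 0.05 later (1.03 ± 0.18, adjusted p = 0.0298). HROB, a DNA repair factor, went the other way, 2.03 at 8 h and between -0.33 and 0.75 later (-1.98 ± 0.32, adjusted p = 0.00782). In all 5 the 8 h array lay outside the range of the 4 later arrays. Leaving out replicate 1 of 24 h gave 29 genes and leaving out replicate 1 of 48 h gave 67; these arrays share their run with 8 h. The 2 probes of TBRG1 (-0.34 and 0.42) and of CBLL1 (-0.175 and 0.27) differed in sign over 24 and 48 h. At 8 h each of these genes had a single probe value. Which probes had a value may thus enter the difference, and its part was not tested. The 2 probes of RFXAP lay at -2.875 and -0.85 at 8 h, and HNRNPA1L2 and HROB had 1 probe each.

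At 24 h alone 2 genes passed and at 48 h alone 83 of 4267 (1.95%), 56 lower (1.31%) and 27 higher (0.633%). At 48 h, 3 genes passed on replicate 1 alone (2 lower and 1 higher) and 195 on replicate 2 alone, of which 108 were higher and 87 lower, the opposite balance. With arrays scaled to equal spread, 8 passed at 24 h (6 lower and 2 higher) and 4 at 48 h (1 lower and 3 higher). Between 48 h and 24 h limma called 0 of 4346 genes (300 with an unadjusted p under 0.05), and 25 without replicate 1 of 48 h. The genes with the smallest p were FRMD6 and ZNF322. FRMD6, a scaffold of the Hippo pathway, was at 0.35 and 0.70 at 24 h and -0.39 and -0.16 at 48 h. ZNF322, a zinc finger gene, was at -0.48 and -0.90 at 24 h and 0.38 and 0.60 at 48 h. Neither passed. Their replicates did not overlap between the times, which largely follows from picking the smallest p. The 2 probes of each gene differed in sign over 24 and 48 h.

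**Figure D3:**
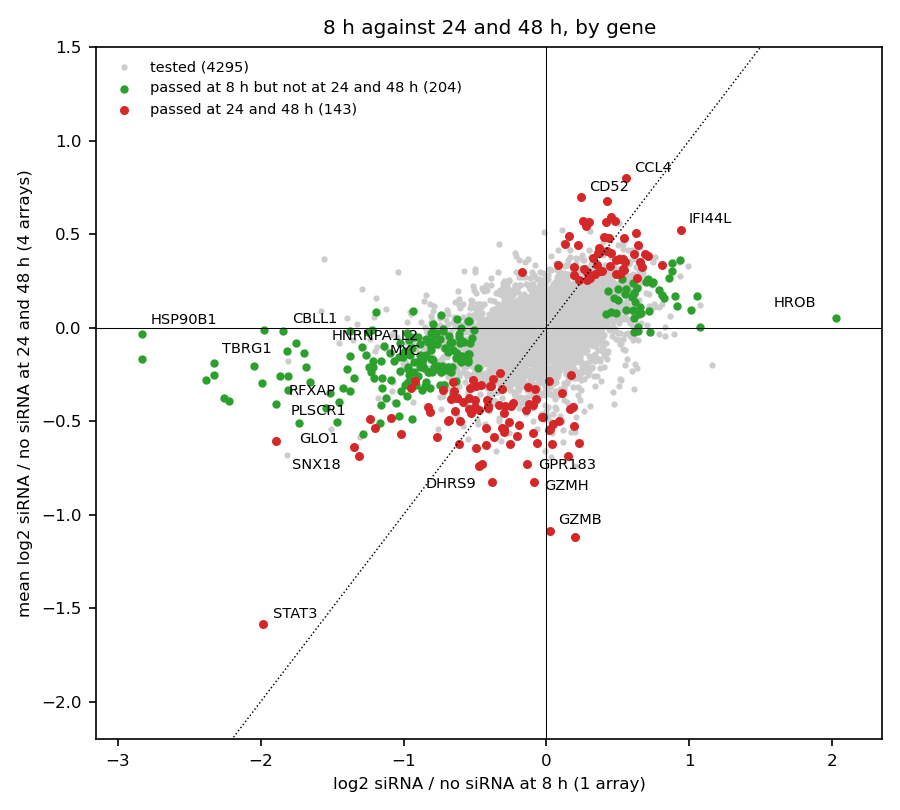
Log2 ratio at 8 h (horizontal axis, 1 array) against the mean at 24 and 48 h (vertical axis, 4 arrays) for 4295 genes, with 143 genes that passed at 24 and 48 h in red and 204 that passed only at 8 h in green; the dotted line marks equal values. STAT3 lies near the line at -1.99 and -1.59, GZMB is at 0.02 and -1.09, and HSP90B1 is at -2.83 and -0.04.

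JAK inhibitor I blocks the kinases that activate STAT3 and was applied to the same line at 5 uM for 3 and 6 h on 4 arrays, against untreated cells without electroporation. Times, dose and controls thus differ from those of the siRNA, and the values are set side by side. Of 97 genes that the inhibitor lowered, 96 were tested with siRNA: 15 fell (15.6%) and 2 rose (2.08%), against 2.05% and 1.27% of all tested genes. Under the block on the siRNA side, 9 fell and 1 rose, against 0.805% and 0.276% of all tested genes. Under the block on the inhibitor side the list shrank to 50 genes (STAT3 left it at an adjusted p of 0.0763), of which 8 fell with siRNA and 2 rose. Of the 95 with a value on all 4 arrays, 32 were below 0 on all 4, against 13.8% of all genes. Besides STAT3 itself (-0.69 ± 0.17 with the inhibitor), those that fell included GPR183 (-0.80 ± 0.13 with the inhibitor, -0.73 ± 0.13 with siRNA), DHRS9 (-0.69 ± 0.09 and -0.82 ± 0.09), MNDA (-0.92 ± 0.12 and -0.48 ± 0.12, lost under the block) and SNX18 (-0.62 ± 0.13 and -0.69 ± 0.13). CCL3 and CCL4 fell with the inhibitor and rose with the siRNA. Of 48 tested genes that the inhibitor raised, 1 rose with siRNA and 0 fell. Over all genes in common the mean ratios correlated at 0.43, as a description across 4287 genes that share a platform and a line. With the inhibitor, replicate 1 of the siRNA correlated at 0.41 and replicate 2 at 0.25, and the replicates with each other at 0.23. The siRNA mean correlated at -0.10 with IL-6 and at 0.07 with IL-10. The 8 h array correlated at 0.28 with the inhibitor, 0.24 with IL-6 and 0.27 with IL-10. The part of a shared dye bias in these values was not tested.

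Several genes with large changes under the inhibitor did not pass with siRNA. DUSP2, a phosphatase of MAP kinases, was at -1.08 ± 0.09 with the inhibitor and 0.01 ± 0.09 with siRNA. PNP, of purine salvage, was at -0.71 and -0.03, the host gene of miR-155 at -0.64 and -0.18, and BCL3 at -0.76 and -0.15. On the other side, DDIT3, which encodes the stress factor CHOP, was at 1.11 ± 0.08 with the inhibitor and 0.03 ± 0.08 with siRNA.

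IL-6 was added to OCI-Ly10 at 50 ng/ml, and its list was taken from 1 to 24 h. Of 115 genes that IL-6 raised, 112 were tested with siRNA: 11 fell (9.82%) and 1 rose (0.893%), against 2.05% and 1.27% of all tested genes, with a median of -0.07. Under the block on the siRNA side 6 fell and 0 rose, against 0.805% and 0.276% of all tested genes. Under the block on the IL-6 side the lists shrank to 24 raised genes, of which 5 fell with siRNA, and 5 lowered genes, of which 2 rose. Both GZMB and GPR183 rose with IL-6 and fell with siRNA: GZMB was at 1.05 with IL-6 and -1.09 with siRNA, and GPR183 at 0.72 and -0.73. ST8SIA4, a sialyltransferase, was at 0.52 with IL-6 and fell by 0.50 ± 0.11 with siRNA (adjusted p = 0.0247; 0.0531 under the block, and up to 0.209 without replicate 1 of 24 h or replicate 2 of 48 h). It also missed the threshold with equal spread and with the spread from OCI-Ly10 arrays alone. Other leading IL-6 genes did not pass: SPP1, the secreted protein osteopontin, was at 1.54 with IL-6 and -0.50 ± 0.21 with siRNA on 3 arrays (adjusted p = 0.193), IL2RB at 0.75 and -0.26 ± 0.12, and SOCS3 at 0.77 and 0.19 ± 0.13. Of 34 tested genes that IL-6 lowered, 3 rose with siRNA (CCL3, CCL4 and IFI44L) and 1 fell; CCL3 was not lowered by IL-6 under the block (adjusted p = 0.196).

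**Figure D4:**
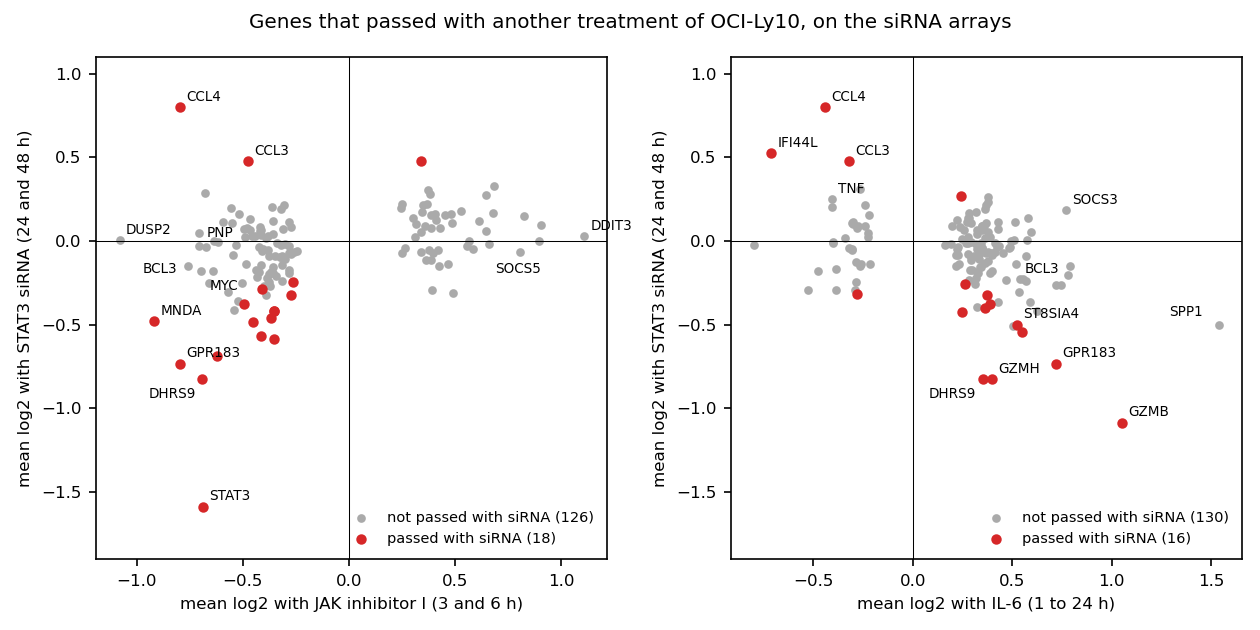
Mean log2 ratio with STAT3 siRNA at 24 and 48 h (vertical axis) against that with JAK inhibitor I (left, 144 genes) or IL-6 (right, 146 genes) for genes that passed with the other treatment; red points passed with siRNA too, 18 on the left and 16 on the right. STAT3, DHRS9 and GPR183 are low in both on the left, GZMB and GPR183 are high with IL-6 and low with siRNA on the right, and CCL4 is above 0 with siRNA in both.

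IL-10 was given to OCI-Ly3, another line of the same lymphoma type, at 50 ng/ml for 1 to 96 h on 10 arrays. It moved far more genes, so its lists are less selective. Of 692 tested genes that IL-10 raised, 17 fell with siRNA (2.46%) and 21 rose (3.03%), against 2.05% and 1.27% of all tested genes; under the block 6 fell and 3 rose. Of 828 that it lowered, 25 fell (3.02%) and 6 rose (0.725%), and 9 and 0 under the block. Of all tested genes, 0.805% fell and 0.276% rose under the block. At 8 h 83 of the 828 fell (10%) against 3.99% of all tested genes, and 54 under the block (all genes 2.8%). Genes that IL-10 raised strongly and siRNA lowered were GPR183 (3.13 with IL-10), SOCS2 (1.91) and DHRS9 (1.90).

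The difference between siRNA and JAK inhibitor I was tested directly in the same fit. Of 4410 genes, 35 differed (0.794%), 20 higher with siRNA (0.454%) and 15 lower (0.34%); 13 differed with the run as a block, and between 13 and 27 when 1 of the 4 arrays was left out (13 without replicate 2 of 48 h, 14 without replicate 1 and 17 without replicate 2 of 24 h). CCL4 differed the most, by 1.60 ± 0.15 (adjusted p = 8.06e-06), and CCL3 by 0.96 ± 0.15 (adjusted p = 0.00345). DUSP2 was higher with siRNA by 1.09 ± 0.13 (adjusted p = 0.000118) and CCND2, cyclin D2 of G1, by 0.97 ± 0.15 (adjusted p = 0.00276). BATF, an AP-1 factor of B cells, differed by 0.76 ± 0.15 (adjusted p = 0.0207, and 0.0651 under the block). These genes were below 0 with the inhibitor and at or above 0 with siRNA. DDIT3 was lower with siRNA by 1.08 ± 0.11 (adjusted p = 3.51e-05), SOCS5 by 0.87 ± 0.12 (adjusted p = 0.000615) and EIF4EBP1, which restrains translation, by 0.80 ± 0.13 (adjusted p = 0.00479). Of 16 genes of the integrated stress response, 5 were lower with siRNA (1 under the block) and 0 higher, and the median difference was -0.53, against -0.01 over all genes. ATF4, a central factor of that response, was at 0.00 ± 0.14 with siRNA and 0.90 ± 0.14 with the inhibitor. ATF4 (adjusted p = 0.0334) and GZMH (adjusted p = 0.0371) missed the threshold under the block, both at an adjusted p of 0.0705. GZMH was at -0.82 ± 0.13 with siRNA and 0.15 ± 0.16 with the inhibitor.

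**Figure D5:**
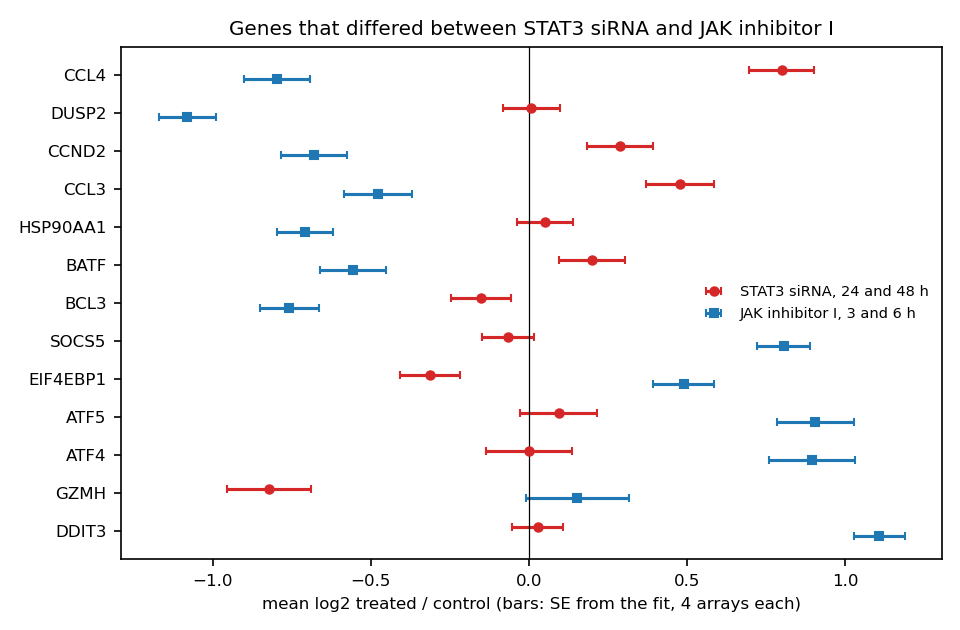
Mean log2 ratio (horizontal axis) of 13 genes with STAT3 siRNA at 24 and 48 h (red circles) and with JAK inhibitor I at 3 and 6 h (blue squares); bars are SEs from the fit. CCL4 lies at 0.80 with siRNA and -0.80 with the inhibitor, and DDIT3 at 0.03 and 1.11.

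Against the mean of the other 5 experiments of the series, 95 of 3517 genes differed (2.7%), 60 lower with siRNA (1.71%) and 35 higher (0.995%); 51 differed with the run as a block, and between 32 and 117 when 1 of the 4 arrays was left out (32 without replicate 2 of 48 h, 39 without replicate 1 and 58 without replicate 2 of 24 h). The 117 without replicate 1 of 48 h were 63 higher and 54 lower, the opposite balance. Of 112 genes called over 24 and 48 h and tested here, 49 were called in the same direction. The lowest were STAT3 (-1.58 ± 0.18), DHRS9 (-1.32 ± 0.10), GPR183 (-1.23 ± 0.14), GZMB (-1.10 ± 0.17), ST8SIA4 (-0.98 ± 0.12) and SOCS2 (-0.85 ± 0.14). IL-6 or IL-10 raised DHRS9, GPR183, GZMB, ST8SIA4 and SOCS2, and that rise enters these differences. The highest were CCL4 (0.91 ± 0.11), TNF (0.88 ± 0.08) and CCL22 (0.84 ± 0.14), NF-kB-driven cytokine genes. Of 41 NF-kB targets 10 were higher here and 1 lower, and 2 of the 5 other experiments blocked NF-kB with an IkB super-repressor. Those 2 were averaged over 2 to 6 h in OCI-Ly3 and 3 to 24 h in OCI-Ly10, with a listed dose of 20 ng/ml. TNF with siRNA itself was at 0.25 ± 0.08 (adjusted p = 0.0775) and CCL22 at 0.41 ± 0.13 (adjusted p = 0.0955) over 24 and 48 h, and neither passed there. At 48 h alone TNF rose by 0.47 ± 0.11 (adjusted p = 0.0366). The 5 probes of TNF differed in sign over 24 and 48 h, from -0.46 to 0.43.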

How the data were processed

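The log2 ratios of Cy5 over Cy3 per probe are those deposited by the authors, with blanks for 12.6% of cells; no source used here gives the base of the logarithm, background correction, spot filter or normalization. Channel intensities were not used, so signal over background is unknown. Each array was median-centred. The 10169 probes with 1 symbol in GEO's platform annotation were averaged into 4604 genes, and 5073 probes without a symbol and 4 with several were left out of gene tests.

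limma 3.58.1 (R 4.3.3) fitted 1 mean per experiment and time over all 40 arrays (lmFit, eBayes), with Benjamini-Hochberg adjustment over all tested genes (threshold 0.05). A gene needed a value on 75% of a comparison's arrays and at every time; times within a comparison weighed equally. No control was set against a control, so the spread of the control RNA does not enter. The scripts were tested on simulated data with known changes. With independent noise, 4.2% of calls were false without a block and 4.7% with the replicate block. With noise shared within a replicate number, 13.2% were false without a block and 7.4% with it, against the threshold of 0.05. In the data, the correlation within a block was 0.26.

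The members, the 22 gene lists and the 4 marker lists were chosen with earlier results of these data known. Named genes were the 12 highest and 12 lowest called with 1 sign on every measured array of 24 and 48 h, the 6 highest and 6 lowest of other contrasts, up to 4 members per list and a set of pathway genes; SAMD9L, ID2, JAK2 and RASGRP1 were named after their values were seen. Runs are consecutive array identifiers (a gap above 50 starts another), not stated print or hybridization batches. The siRNA sequences were not used here.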

Additional observations from a re-analysis of the deposited data

Results flagged for a closer look

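In 5 genes the 8 h array differed from 24 and 48 h by the test of that difference. The mean at 24 and 48 h minus 8 h was 2.14 for TBRG1, 1.82 for CBLL1, 1.60 for RFXAP, 1.03 for HNRNPA1L2 and -1.98 for HROB. Each rests on 1 array at 8 h. For TBRG1 and CBLL1 that array gave a single probe value, against 2 probes later. Within the run that holds the 8 h array, with replicate 1 of 24 and 48 h only, 4 genes differed.

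Probes that carry no gene symbol here were outside the gene tests. Tested probe by probe, 152 of 4017 such probes passed at 24 and 48 h, and 62.5% of these were lower. Of all probes tested that way, 540 of 13030 passed, 330 of them lower. The probes without a symbol were thus near the share of all probes.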

How the results depend on the processing

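No named gene's call and no STAT3 value changed sign under any alternative run. The balance of calls did turn: at 48 h, 27 higher and 56 lower became 108 and 87 without replicate 1 of 48 h and 3 and 1 with equal spread, and against the other experiments 35 and 60 became 63 and 54 without replicate 1 of 48 h. Values as deposited, robust moderation, stricter or looser filters on missing values and the median of a gene's probes kept every count within 1.5 times. Arrays scaled to equal spread gave 83 genes at 24 and 48 h, 8 at 8 h, 8 at 24 h, 4 at 48 h and 0 for the later times minus 8 h. Each probe on its own gave 540, 628 and 378 probes at 24 and 48 h, 8 h and 48 h, 11 for later minus 8 h, 86 against the JAK inhibitor and 264 against the other experiments, since more features are tested. With the spread from OCI-Ly10 arrays alone, 90 genes passed at 24 and 48 h, 31 at 48 h and 0 for later minus 8 h. With the spread from the 5 siRNA arrays alone, limma called 0 genes at 24 and 48 h, 8 h, 24 h, 48 h and for later minus 8 h (619, 592, 221, 582 and 224 at an unadjusted p under 0.05), and STAT3 at -1.59 had an adjusted p of 0.241; that fit has fewer arrays. The replicate block gave 47 genes at 24 and 48 h, 13 against the inhibitor and 50 against the other experiments, and the run as a block gave 47, 13 and 51. Labels do not say what a replicate number shares; across 3947 genes the difference between replicates at 24 h correlated with that at 48 h at 0.25. Within 1 run, an alternative chosen after seeing the data, replicate 2 alone gave 44 genes at 24 and 48 h and replicate 1 alone gave 105.

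Leaving out 1 siRNA array gave 21 to 144 genes at 24 and 48 h, 255 to 291 at 8 h, 1 to 4 at 24 h, 3 to 195 at 48 h, 4 to 67 for later minus 8 h, 0 to 25 for 48 h minus 24 h, 13 to 35 against the inhibitor, 32 to 117 against the other experiments, and STAT3 between -1.80 and -1.38. A lone array at a time was assumed to vary like the other groups.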
